A study of Bos taurus with 10 samples.

Results

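The genes described here are the mitogen-activated protein kinases (MAP kinases) of cattle fat, the kinases stacked above and below them, and the dual-specificity phosphatases (DUSPs). They were taken by name, as every gene whose symbol begins with MAPK, MAP2K, MAP3K, MAP4K or DUSP and a number, or with MAPKAPK. The rule found 65 of the 12674 genes in the deposited table, and all 65 had enough counts to be tested. They comprise 11 MAP kinases, 6 MAP2Ks, 16 MAP3Ks, 5 MAP4Ks, 3 MAP kinase-activated kinases, 19 DUSPs and 5 genes named for binding a kinase or resembling one. MAPK4 was singled out for comparison with the other kinases because its depot difference was already known.

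Intramuscular fat, the marbling between muscle fibres, and subcutaneous fat, the layer under the skin, were sampled from the same 5 adult female Angus-cross cattle, with no treatment named in the labels. Each depot gave 5 RNA libraries, numbered 1 to 5, and libraries with the same number were taken as one animal. The series asked why marbling fat is laid down later and more slowly than fat under the skin. Both samples were pieces of whole tissue, so a transcript can come from any cell in the piece, and fewer cells of a type and less RNA per cell cannot be told apart.

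MAP kinases work in relays: a MAP4K or another upstream signal activates a MAP3K, which phosphorylates a MAP2K, which phosphorylates the MAP kinase on its activation loop. The classical ERKs, MAPK3 among them, carry growth factor signals, while the JNKs (MAPK8 and MAPK9) and the p38 kinases (MAPK11, MAPK12 and MAPK14) carry stress and cytokine signals. MAPK6 (ERK3) and MAPK4 (ERK4) are atypical, since they lack the usual activation motif and are not driven by a MAP2K. They bind and activate MAPKAPK5. DUSPs with a kinase-binding domain, the MAP kinase phosphatases, switch MAP kinases off, and many of their genes are themselves induced by the kinases they restrain. In fat cells these relays act on differentiation, lipolysis and insulin signalling.

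The counts over all listed genes ranged from 9392739 to 14836808 in intramuscular and from 13776094 to 17685678 in subcutaneous libraries. Levels are given as CPM, counts scaled to a common library size, p-values come from the quasi-likelihood test of edgeR, adjusted by Benjamini-Hochberg over all 12521 genes tested, and a gene was called at an adjusted p under 0.05. The depots were checked against marker genes. Of 18 adipocyte markers, 15 had values, and together they took 0.892, 1.87, 1.91, 2.52 and 2.72% of counts in intramuscular replicates 1 to 5 and 2.60 to 3.50% in subcutaneous fat, so intramuscular replicate 1 stood below the rest. Of 77 skeletal muscle genes, 14 had values, and 13 of these were higher and 0 lower in intramuscular fat. The 14 muscle genes took 0.447, 0.109, 0.223, 0.0627 and 0.0732% of counts in intramuscular replicates 1 to 5, against 0.00121 to 0.00477% in subcutaneous fat, where 4 of them had no count in any library. The other 63 muscle genes, among them ACTA1, CKM and TTN, have no values in the deposited counts and could not be analysed. The muscle shares thus cover 14 genes only and do not measure how much muscle RNA a piece held.

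In intramuscular fat 7 of the 65 genes stood higher and 3 stood lower than under the skin. The higher ones were MAPK4, MAPK6, MAPKAPK2, DUSP26, DUSP3, DUSP8 and MAPK1IP1L, and the lower ones MAPK3, MAPK11 and MAP3K11. These shares, 10.8% higher and 4.62% lower, stand beside 6.75% and 5.49% of all genes tested, so the group as a whole was called about as often as the table (15.4% against 12.2%). The 10 called genes are also the 10 whose 5 intramuscular values lay entirely above (7 genes, 10.8%) or below (3 genes, 4.62%) the 5 subcutaneous ones. Among all genes tested 7.85% and 5.04% were separated in this way. The median log2 fold change was 0.21 for the 65 genes and -0.04 for all genes tested, and the median absolute log2 fold change was 0.33 and 0.38.

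**Figure D1:**
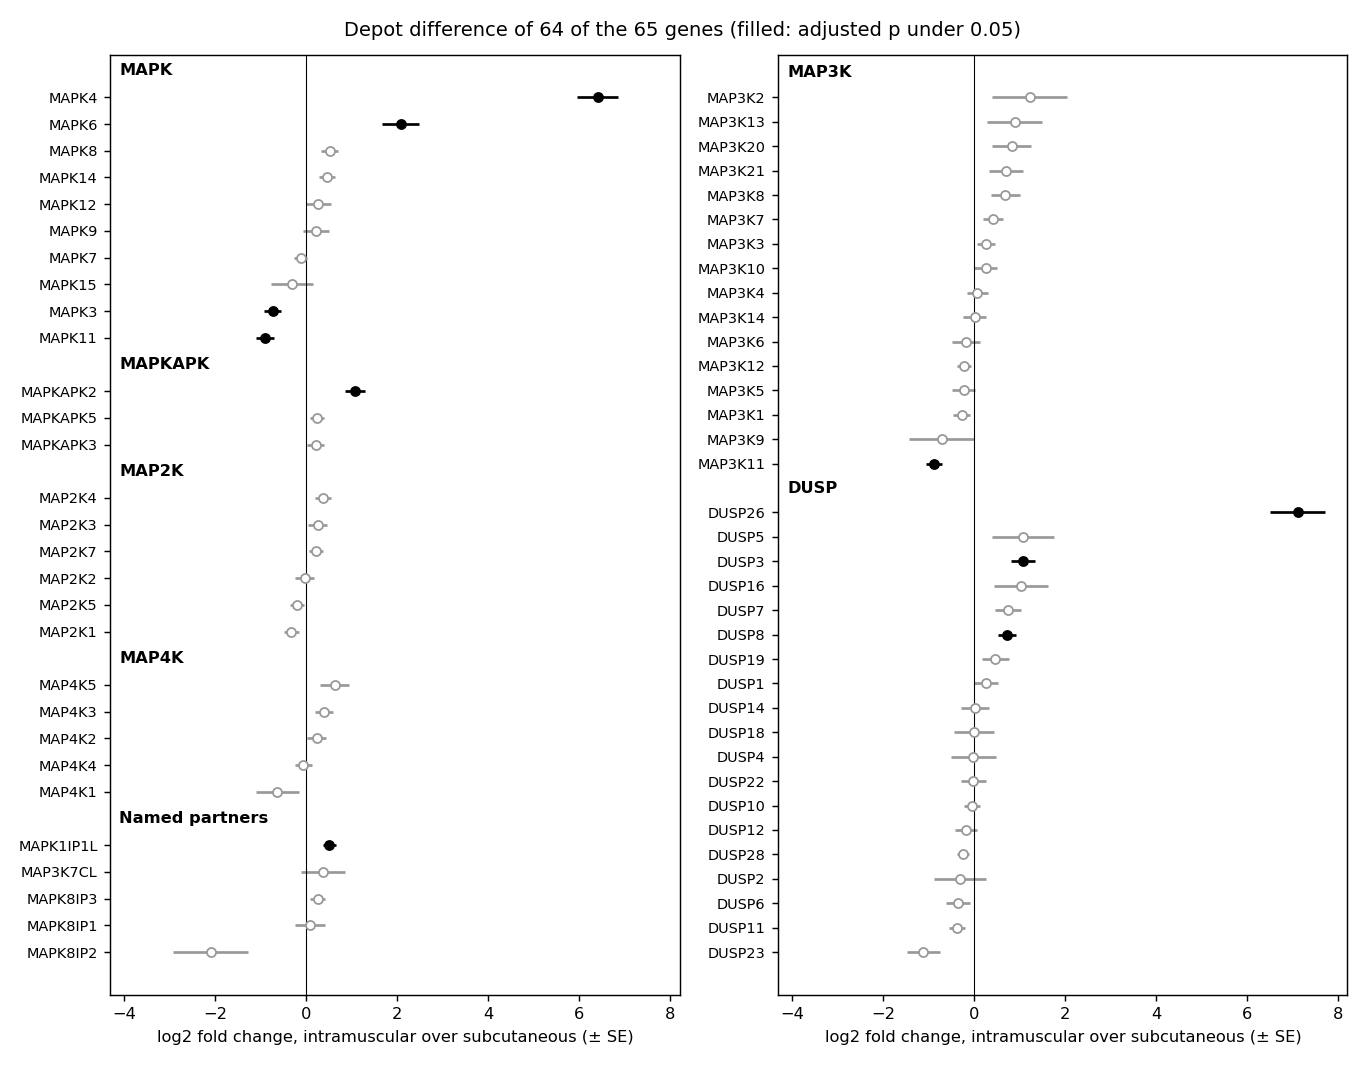
Log2 fold change of intramuscular over subcutaneous fat for 64 of the 65 genes (points, with bars of 1 standard error), grouped by family. Filled points passed an adjusted p of 0.05. MAPK4 at 6.40 and DUSP26 at 7.11 stand far to the right, while the genes shown that did not pass lie between -2.09 and 1.22.

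MAPK4 and MAPK6, the atypical kinases, were the 2 MAP kinases higher in intramuscular fat. MAPK4 (ENSBTAG00000009907, chromosome 24, 50107770 to 50281083 in the deposited table) measured 40.5, 36.2, 48.3, 24.7 and 20.1 CPM in intramuscular replicates 1 to 5 and 0.0645, 0.586, 0.248, 0.411 and 0.680 CPM in subcutaneous replicates 1 to 5. The subcutaneous values rest on 1, 8, 4, 7 and 10 counts, so their order is not resolved at this depth, whereas the intramuscular libraries held 297 to 661 counts. Every intramuscular library was far above every subcutaneous one. The means were 34.0 ± 11.5 and 0.398 ± 0.250 CPM (SD, n = 5), with a log2 fold change of 6.40 ± 0.45 (SE, adjusted p = 1.43e-05), the second smallest p of all genes tested by edgeR. With a prior count of 2 added, which shrinks differences against so few counts, the log2 difference within the 5 pairs was 7.65, 5.65, 6.97, 5.50 and 4.63. With 1 library left out the log2 fold change ranged from 6.13 to 6.68.

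MAPK6 (ENSBTAG00000005865, chromosome 10, 58334675 to 58366916) was present in both depots and about 4 times higher in intramuscular fat. It measured 145, 66.3, 105, 54.8 and 55.8 CPM in intramuscular and 20.5, 20.7, 11.2, 40.1 and 8.78 CPM in subcutaneous replicates 1 to 5. The groups did not overlap, but subcutaneous replicate 4 came close to the lower intramuscular libraries, and the log2 difference within pairs ran from 0.45 in pair 4 to 3.21 in pair 3. The ratio of means was 4.21 and the log2 fold change 2.07 ± 0.41 (SE, edgeR adjusted p = 0.00723). Without intramuscular replicates 1 and 3, the libraries with the largest muscle gene shares, the log2 fold change was 1.54 and the adjusted p 0.0697.

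The depot difference of MAPK4 was compared with that of each of the other 10 MAP kinases, through the log2 difference of MAPK4 and the other kinase in each library. MAPK4 stood higher relative to the other kinase in all intramuscular libraries than in any subcutaneous library for 10 of 10 kinases. The shift between depots was smallest against MAPK6, at 3.92 log2 units (-1.29 ± 0.37 in intramuscular and -5.20 ± 1.27 in subcutaneous fat, SD, n = 5). It was 6.77 against MAPK3, 5.93 against MAPK12 and, at its largest, 6.96 against MAPK11. Each of the 10 comparisons had a two-sided exact permutation p of 0.00794, adjusted and unadjusted, which is the smallest that 5 against 5 libraries allow. By sign flips of the 5 pairs each exact permutation p was 0.0625, again the smallest possible, so no paired test of this kind can pass 0.05. As MAPK4 was chosen for its known difference, these p-values describe how fully the libraries separate and are no independent evidence.

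Scaled by gene length, MAPK4 was the lowest of the 11 MAP kinases in subcutaneous fat and still the lowest but one in intramuscular fat. Its CPM per kilobase made up 0.0296 ± 0.0190% of the sum over the 11 in subcutaneous and 2.67 ± 0.778% in intramuscular fat (SD, n = 5). Next above it in intramuscular fat was MAPK8 at 2.76 ± 0.569%, a gap smaller than either spread, and below it MAPK15 at 1.55 ± 0.783%. MAPK6 went from 2.63 ± 1.66% to 11.5 ± 4.67%. MAPK3 held 28.0 ± 3.96% in intramuscular and 42.7 ± 9.72% in subcutaneous fat.

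**Figure D2:**
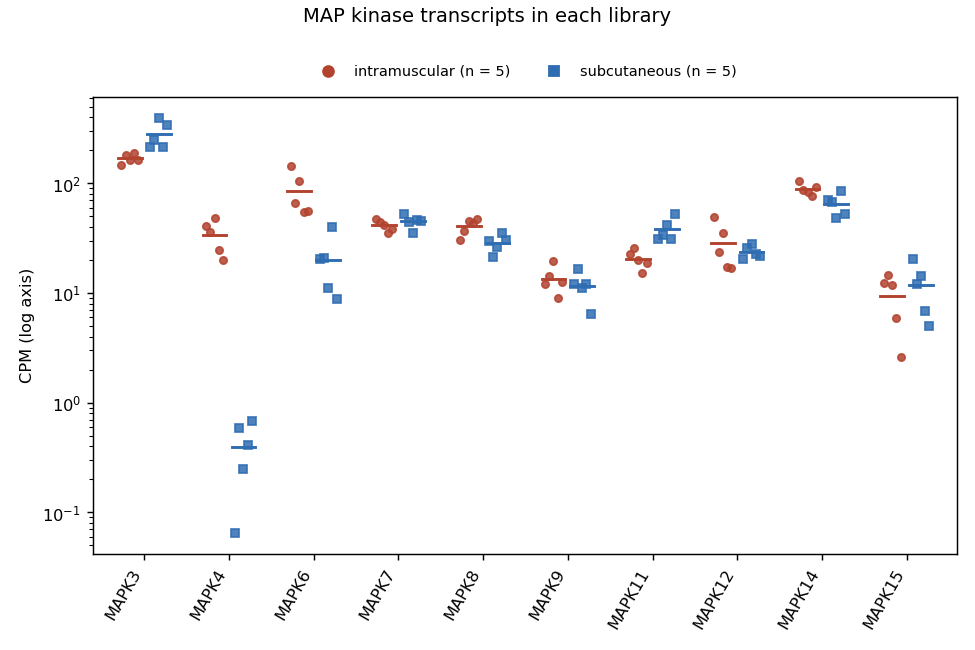
CPM (log axis) of 10 of the 11 MAP kinases in the 5 intramuscular (circles) and 5 subcutaneous (squares) libraries, with a line at each mean. MAPK4 lies between 20.1 and 48.3 CPM in intramuscular fat and below 0.7 CPM in subcutaneous fat, while most other kinases overlap between depots.

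MAPK3 (ERK1, ENSBTAG00000016156, chromosome 25, 26178468 to 26186174) was lower in intramuscular fat. Its level was 147, 183, 163, 189 and 164 CPM in intramuscular and 213, 250.3, 394, 214 and 339 CPM in subcutaneous replicates 1 to 5, so the depots did not overlap and the subcutaneous libraries varied more. MAPK3 fell by 0.74 on the log2 scale (SE 0.19, edgeR adjusted p = 0.0286). That call is fragile: the adjusted p was 0.0649, 0.0519, 0.0728 and 0.0595 without intramuscular replicate 1, 2, 3 or 5, and 0.0646 and 0.0543 without subcutaneous replicate 3 or 5. MAPK7 (ERK5), which serves growth and stress signals and is prominent in vessels, measured 41.4 ± 4.70 against 45.0 ± 6.13 CPM, and MAPK15 9.46 ± 4.96 against 11.8 ± 6.15 CPM. By edgeR the adjusted p came to 0.617 for MAPK7 and 0.675 for MAPK15. The MAPK7 locus overlaps MFAP4 on the opposite strand by 596 bases, and the strand setting of the counting is not given in the sources used here.

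The 3 p38 kinases with values did not move alike. MAPK11 (p38 beta, ENSBTAG00000030182, chromosome 5, 119628483 to 119634547) measured 22.6, 25.6, 20.0, 15.3 and 18.8 CPM in intramuscular and 31.0, 33.7, 41.8, 31.4 and 53.1 CPM in subcutaneous replicates 1 to 5. All intramuscular values lay below all subcutaneous ones, and MAPK11 fell by 0.90 on the log2 scale (SE 0.20, edgeR adjusted p = 0.0143). Without intramuscular replicates 1 and 3 the log2 fold change was -0.94 and the adjusted p 0.0859 by edgeR. MAPK12 (p38 gamma), the form best known from skeletal muscle, lies 1168 bases from MAPK11 on the same strand. It measured 49.6, 23.9, 35.5, 17.5 and 17.1 CPM in intramuscular and 20.5 to 28.0 CPM in subcutaneous fat, with only intramuscular replicates 1 and 3 above the subcutaneous range (log2 fold change 0.27 ± 0.28, edgeR adjusted p = 0.548). MAPK14 (p38 alpha), the broadly expressed form, measured 89.1 ± 10.8 against 65.2 ± 15.0 CPM (SD, n = 5; log2 fold change 0.45 ± 0.17, edgeR adjusted p = 0.104). MAPK11 differed in its depot shift from both relatives, by -1.04 log2 units against MAPK12 and -1.36 against MAPK14 (two-sided exact permutation p = 0.00794 each, adjusted p = 0.0172 over 13 such comparisons of a called gene with its relatives, which were chosen after the calls were known). The 13 comparisons took the libraries as unpaired, and sign flips of 5 pairs cannot give a p below 0.0625. For the JNKs, MAPK8 measured 40.8 ± 7.10 against 28.5 ± 5.21 CPM and was higher in 5 of 5 pairs, with a log2 fold change of 0.52 ± 0.18 (edgeR adjusted p = 0.0779, and 0.0431 by DESeq2). MAPK9 measured 13.6 ± 3.99 against 11.7 ± 3.67 CPM (edgeR adjusted p = 0.630). The genes MAPK10 and MAPK13 were not analysed here.

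The MAP2Ks are the kinases that phosphorylate the MAP kinases, and MAP2K6 was not analysed here. None of the 6 tested was called by edgeR, DESeq2 or limma voom, and 1 had an unadjusted edgeR p under 0.05. Among all genes tested edgeR called 12.2%, and 30.7% had an unadjusted p under 0.05. Over 6 genes the lack of a call is not a result about the family and does not show equal levels. The log2 fold changes of the 6 lay between -0.33 for MAP2K1 and 0.37 for MAP2K4. MAP2K1 (MEK1), which activates the ERKs, measured 126, 186, 159, 213 and 183 CPM in intramuscular and 181, 221, 219, 253 and 217 CPM in subcutaneous replicates 1 to 5. It was lower in the intramuscular library of all 5 pairs, but the depots overlapped (edgeR adjusted p = 0.198, or 0.116 with the animal as a block). MAP2K2 (MEK2) measured 129.7 ± 33.7 against 133 ± 35.9 CPM. Of the JNK activators MAP2K4 measured 64.2 ± 15.2 against 49.6 ± 4.74 CPM and MAP2K7 91.2 ± 15.8 against 78.5 ± 10.6 CPM. MAP2K3, a p38 activator, measured 59.0 ± 13.7 against 49.3 ± 12.6 CPM and MAP2K5, the activator of MAPK7, 52.9 ± 5.94 against 60.8 ± 8.41 CPM (all SD, n = 5).

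Of the 16 MAP3Ks only MAP3K11 was called without the animal as a block, by edgeR, DESeq2 and limma voom alike. With 12.2% of all genes tested called by edgeR, 1 of 16 cannot be read as a result about the family. MAP3K11 (MLK3, ENSBTAG00000004114, chromosome 29, 43778592 to 43795152), a mixed lineage kinase that feeds the JNK and p38 relays, measured 77.2, 56.2, 54.3, 54.6 and 70.6 CPM in intramuscular and 111, 119, 118, 82.4 and 148 CPM in subcutaneous replicates 1 to 5. The depots did not overlap, and the gene fell by 0.89 on the log2 scale (SE 0.18, edgeR adjusted p = 0.00809). Its adjusted p was at most 0.0309 with any 1 library left out and 0.0417 without intramuscular replicates 1 and 3. Its depot shift differed from those of MAP3K10 and MAP3K12 by -1.07 and -0.65 log2 units, and from those of MAP3K13, MAP3K20 and MAP3K21 by -1.59, -1.83 and -1.66 (two-sided exact permutation, adjusted p of 0.0172 to 0.0469). Against MAP3K9 the difference was 0.19 (exact permutation p = 0.810). These tests took the libraries as unpaired, and MAP3K11 was compared because it was called, so they are no independent evidence. MAP3K20 (ZAK), which senses stalled ribosomes, measured 15.8, 13.4, 21.3, 8.68 and 7.64 CPM in intramuscular and 5.55, 7.99, 15.0, 6.64 and 2.31 CPM in subcutaneous replicates 1 to 5. It was higher within each of the 5 pairs although the depots overlapped, and the edgeR adjusted p was 0.206, or 0.0462 once the animal was taken as a block. MAP3K7 (TAK1), central to cytokine and TGF-beta signalling, was likewise higher in 5 of 5 pairs, at 36.0 ± 6.94 against 26.9 ± 7.65 CPM (SD, n = 5; edgeR adjusted p = 0.217). MAP3K8 (TPL2), which links inflammatory receptors to the ERKs, measured 6.86 ± 2.56 against 4.26 ± 0.862 CPM (edgeR adjusted p = 0.166) and MAP3K14 (NIK), the kinase of noncanonical NF-kappa B signalling, 27.1 ± 9.29 against 26.9 ± 7.23 CPM (edgeR adjusted p = 0.981). MAP3K5 (ASK1) measured 43.9 ± 12.7 against 51.5 ± 16.5 CPM (edgeR adjusted p = 0.577). MAP3K2 was near the limit of detection, at 1.89 ± 1.02 against 0.807 ± 0.837 CPM (SD, n = 5).

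None of the 5 MAP4Ks was called by edgeR, DESeq2 or limma voom, and 0 had an unadjusted p under 0.05 by edgeR. With 12.2% of all genes tested called by edgeR, 0 of 5 cannot be read as a result about the family. MAP4K3, which takes part in amino acid sensing, stood at 70.4 ± 14.2 CPM in intramuscular and 53.5 ± 11.1 CPM in subcutaneous fat, and MAP4K5 at 19.2 ± 5.73 and 12.4 ± 4.83 CPM (SD, n = 5; edgeR adjusted p = 0.178 and 0.193). Among the genes named for a kinase they bind, MAPK1IP1L (ENSBTAG00000021986, chromosome 10, 67525428 to 67538325) was higher in intramuscular fat, at 81.7, 104, 107, 97.2 and 86.4 CPM against 72.0, 67.3, 51.8, 75.7 and 68.2 CPM in subcutaneous replicates 1 to 5. The depots were apart but close, with a log2 fold change of 0.51 ± 0.15 (SE, edgeR adjusted p = 0.0420). The adjusted p was 0.0615 with the animal as a block. It was 0.0966, 0.115, 0.0731 and 0.0582 without intramuscular replicates 2, 3, 4 or 5, and 0.0703, 0.0869 and 0.0570 without subcutaneous replicates 2, 3 or 5. MAPK8IP2 (JIP2), a JNK scaffold best known from neurons, was low, at 0.374, 0.0734, 1.32, 1.90 and 0.541 CPM in intramuscular and 0.194, 1.98, 5.03, 6.05 and 4.97 CPM in subcutaneous replicates 1 to 5. Its log2 fold change of -2.09 ± 0.83 had an edgeR adjusted p of 0.110, but 0.0379 without subcutaneous replicate 1, the one subcutaneous library in which it was lower than in its intramuscular pair.

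Below the MAP kinases, MAPKAPK2 (MK2, ENSBTAG00000038107, chromosome 16, 4464620 to 4514607), the p38 substrate that stabilises inflammatory mRNAs and phosphorylates small heat shock proteins, was higher in intramuscular fat, with a ratio of means of 2.11. It measured 175, 105, 115, 77.1 and 83.0 CPM in intramuscular and 58.9, 44.6, 47.2, 47.1 and 64.8 CPM in subcutaneous replicates 1 to 5. The depots did not overlap (log2 fold change 1.08 ± 0.22, SE, edgeR adjusted p = 0.00928), and without intramuscular replicates 1 and 3 the log2 fold change was 0.75 with an adjusted p of 0.0659. MAPKAPK5, the partner of the atypical kinases, measured 58.1 ± 3.77 against 49.4 ± 9.5 CPM (SD, n = 5; log2 fold change 0.23 ± 0.16, edgeR adjusted p = 0.333). MAPKAPK3 had a log2 fold change of 0.21 ± 0.18 (edgeR adjusted p = 0.458). The shift of MAPKAPK2 exceeded that of MAPKAPK3 by 0.84 log2 units and that of MAPKAPK5 by 0.78 (two-sided exact permutation, adjusted p = 0.0172 and 0.0469). Both tests took the libraries as unpaired, and MAPKAPK2 was compared because it was called, so they are no independent evidence.

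Among the phosphatases, 3 of 19 DUSPs were higher and 0 lower in intramuscular fat, beside 6.75% higher and 5.49% lower of all genes tested. Over 19 genes these counts are too small to read as a shift of the group. DUSP26 (ENSBTAG00000016413, chromosome 27, 29281841 to 29288445), an atypical phosphatase found mainly in nervous tissue and striated muscle, measured 223, 82.5, 103, 50.2 and 41.2 CPM in intramuscular and 1.68, 0.440, 0.683, 0.352 and 0.408 CPM in subcutaneous replicates 1 to 5. The lowest intramuscular library was thus above the highest subcutaneous one, and intramuscular replicate 1 stood above the other 4. The log2 fold change was 7.11 ± 0.60 (SE, edgeR adjusted p = 3.28e-05), the largest of the 65 genes. Subcutaneous replicate 1 held 26 of the counts against 6, 11, 6 and 6 in the others, and without it the log2 fold change was 7.70. DUSP3 (VHR, ENSBTAG00000003966, chromosome 19, 43658550 to 43671863), an atypical phosphatase that acts on ERKs and JNKs, measured 341, 159.9, 210.5, 150.2 and 144 CPM in intramuscular and 81.6, 113, 136, 81.1 and 67.2 CPM in subcutaneous replicates 1 to 5. The ranges met closely at 144 and 136 CPM, and the log2 fold change was 1.07 ± 0.27 (SE, edgeR adjusted p = 0.0232, 0.0590 without intramuscular replicate 3 and 0.153 without replicates 1 and 3).

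DUSP8 (ENSBTAG00000051211, chromosome 29, 49970526 to 49980774), a MAP kinase phosphatase for JNK and p38, was also higher. Its level was 120.4, 135, 147, 113 and 113 CPM in intramuscular and 94.6, 95.6, 82.9, 51.3 and 54.6 CPM in subcutaneous replicates 1 to 5. The intramuscular libraries lay close together and above all others, with a log2 fold change of 0.73 ± 0.20 (SE, edgeR adjusted p = 0.0317). Leaving out intramuscular replicate 1, 2 or 3 gave adjusted p of 0.0513, 0.0629 and 0.0798, and leaving out subcutaneous replicate 3, 4 or 5 gave 0.0534, 0.0535 and 0.0571. Its relative DUSP10 measured 68.0 ± 15.5 against 70.3 ± 8.37 CPM (SD, n = 5), and the shift of DUSP8 exceeded that of DUSP10 by 0.84 log2 units (two-sided exact permutation p = 0.00794, adjusted p = 0.0172). DUSP16, the other phosphatase of this class, was high in both libraries of animal 2, at 15.9 CPM in intramuscular and 10.6 CPM in subcutaneous fat, and between 4.60 and 7.45 and between 0.612 and 3.17 CPM in the other animals. It was higher in intramuscular fat in 5 of 5 pairs, and its edgeR adjusted p was 0.256, or 0.0431 once the animal was taken as a block, or 0.0467 without subcutaneous replicate 2. The shift of DUSP8 relative to DUSP16 was -0.58 (exact permutation p = 0.333). These comparisons took the libraries as unpaired, and DUSP8 was compared because it was called, so they are no independent evidence.

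The inducible nuclear phosphatases DUSP1, DUSP2, DUSP4 and DUSP5 were not called by edgeR, DESeq2 or limma voom, and 0 of the 4 had an unadjusted edgeR p under 0.05. With 12.2% of all genes tested called by edgeR, 4 genes are too few for a result about the class. DUSP1 (MKP-1), an immediate early gene that rises quickly when tissue is handled or stressed, was the most abundant DUSP per length in both depots, with 61.1 ± 8.85% of the DUSPs' summed CPM per kilobase in intramuscular and 59.1 ± 11.8% in subcutaneous fat (SD, n = 5). It measured 809, 1185, 992, 1254 and 1397 CPM in intramuscular and 1429, 854, 520.2, 1141 and 771 CPM in subcutaneous replicates 1 to 5. These ranges overlapped almost fully (log2 fold change 0.26 ± 0.26, edgeR adjusted p = 0.535). DUSP2, known from immune cells, measured 3.56 to 16.1 CPM in intramuscular and 3.48 to 10.8 CPM in 4 subcutaneous libraries, but 35.1 CPM in subcutaneous replicate 5. The DUSP2 log2 fold change was -0.30 with that library and 0.53 without it (edgeR adjusted p = 0.758 and 0.471). DUSP4 measured 11.8 ± 6.44 against 11.9 ± 7.58 CPM, and DUSP5, an ERK-specific nuclear phosphatase, 5.77 ± 2.00 against 2.73 ± 2.94 CPM (edgeR adjusted p = 0.300). Subcutaneous replicate 1 held 7.74 CPM of DUSP5 and the others 0.124 to 2.35, and without it the log2 fold change went from 1.08 to 1.97 (edgeR adjusted p = 0.0531). The cytoplasmic ERK phosphatases DUSP6 and DUSP7 measured 46.0 ± 13.2 against 58.6 ± 20.3 CPM and 47.0 ± 22.9 against 28.0 ± 5.05 CPM (edgeR adjusted p = 0.384 and 0.0939, the latter for DUSP7). The DUSP7 log2 fold change of 0.74 was 0.42 without intramuscular replicate 1 (adjusted p 0.221), 0.29 without replicates 1 and 3 (0.492) and 0.91 without replicate 4 (0.0495, all by edgeR). DUSP23, which the rule for named genes does not include and which was added after its values were seen, was lower in intramuscular fat in 5 of 5 pairs, at 13.1 to 28.4 CPM against 21.6, 24.0, 74.5, 33.8 and 76.9 CPM. Its log2 fold change of -1.11 ± 0.37 had an edgeR adjusted p of 0.0628, or 0.0279 with the animal as a block.

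**Figure D3:**
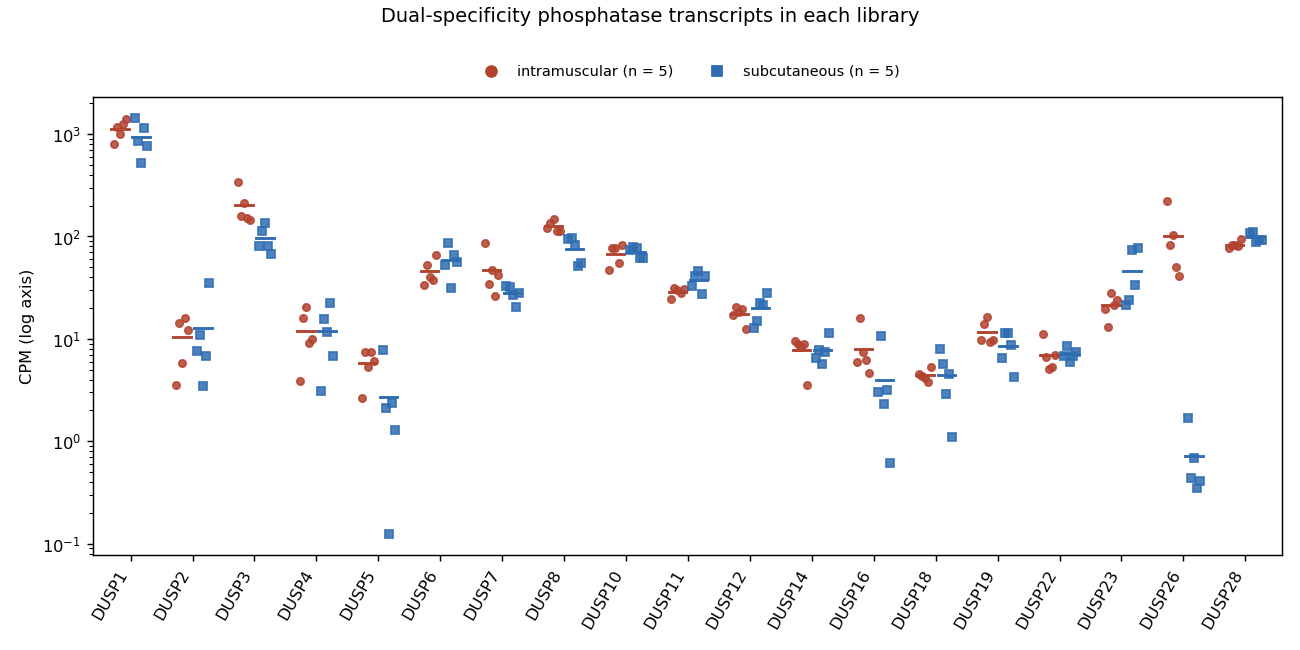
CPM (log axis) of the 19 DUSPs in the 5 intramuscular (circles) and 5 subcutaneous (squares) libraries, with a line at each mean. DUSP26 is between 41.2 and 223 CPM in intramuscular fat and at most 1.68 CPM in subcutaneous fat, and DUSP1 stands above the other DUSPs in both depots.

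With the animal as a block, 12 of the 65 genes were called (18.5%, against 15.0% of all genes tested), with DUSP16, DUSP23 and MAP3K20 added and MAPK1IP1L lost. The authors' deposited table calls 13 of the 65 (20.0%), the same as its share of all 12674 genes (20.0%). These 13 include all 10 called here, with MAPK8, MAPK8IP2 and DUSP23 added.

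Several of the genes higher in intramuscular fat followed the share of muscle genes from library to library. The muscle gene share was largest in intramuscular replicate 1, then 3, then 2, and lower in 4 and 5. DUSP26, DUSP3, MAPK6 and MAPKAPK2 were each highest in replicate 1, then 3, then 2, and lower in 4 and 5, as was MAPK12. MAPK4 was also higher in replicates 1, 2 and 3 than in 4 and 5, but highest in replicate 3. DUSP8 and MAPK1IP1L did not have that order, with replicate 3 highest and replicate 1 below replicate 2. Without replicates 1 and 3 the genes still called were MAPK4 (log2 fold change 6.07), DUSP26 (6.33) and MAP3K11 (-0.94). In that fit, with 3 against 5 libraries, the calls over all genes fell from 845 higher and 688 lower to 306 and 67. Some members lost the call with about the same log2 fold change, namely MAPK11 (-0.94, against -0.90 with all libraries), MAPK1IP1L (0.51 both times) and DUSP8 (0.67 against 0.73). The part of the muscle share in these results was not tested. Other shares also ran along replicates 1 to 5 of intramuscular fat. The adipocyte markers rose (0.892, 1.87, 1.91, 2.52 and 2.72% of counts) and the mural markers fell (0.304, 0.266, 0.261, 0.237 and 0.209%). Whether the genes followed the muscle share rather than these shares was not tested. Among nerve and mural markers, 7 of 13 Schwann cell and nerve genes and 3 of 7 mural genes were higher, and 1 and 0 lower. Among all genes tested 6.75% were higher and 5.49% lower. The shares of counts overlapped between depots for both lists. The nerve genes took 0.0602 to 0.0931% of counts in intramuscular and 0.0682 to 0.128% in subcutaneous fat, and the mural genes 0.209 to 0.304% and 0.144 to 0.249%. Lower, as were MAPK3, MAPK11 and MAP3K11, were 4 of 14 endothelial, 4 of 14 macrophage and 4 of 14 fibro-adipogenic progenitor genes. In each list 0 were higher, and the median log2 fold changes were -0.40, -0.84 and -0.73. Of the 15 adipocyte markers 2 were lower and 1 higher, with a median log2 fold change of -0.77. Among all genes tested 5.49% were lower. The endothelial genes took 0.233 to 0.295% of counts in intramuscular and 0.259 to 0.474% in subcutaneous fat. The macrophage genes took 0.0221 to 0.0523% and 0.0192 to 0.0930%, and the progenitor genes 1.11 to 1.27% and 0.851 to 2.06%. The part of these cell types was not tested either.

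**Figure D4:**
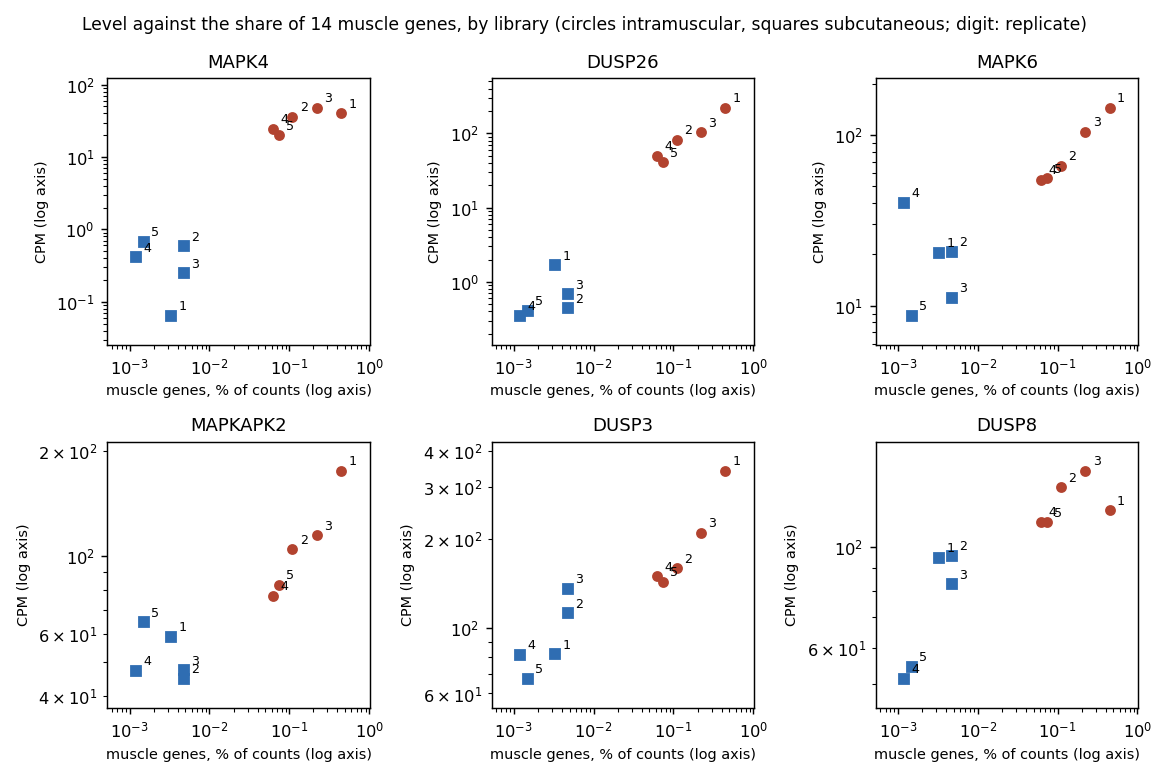
CPM of 6 genes (log axis) against the share of counts taken by 14 skeletal muscle genes (log axis, %) in each library; circles are intramuscular and squares subcutaneous, and the digit is the replicate. In intramuscular fat DUSP26, MAPK6, MAPKAPK2 and DUSP3 are highest in replicate 1, which has a muscle gene share of 0.447%, while DUSP8, shown for comparison, is highest in replicate 3.

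The rest of the pathway was read from 7 lists of genes that the name rule leaves out, 108 of which were tested. Of these, 12 were higher and 4 lower in intramuscular fat (14.8%, against 12.2% of all genes), and the median log2 fold change was 0.27. With the animal as a block 16 were higher and 4 lower: PTPN11, CNKSR3, TNIK, RPS6KA5 and FOSL1 were added as higher and GADD45A as lower, and CNKSR1 and TAB1 were lost (edgeR adjusted p = 0.0557 and 0.0561). The genes added had adjusted p of 0.0279 to 0.0480 with the block by edgeR and were named after their values were seen. Without intramuscular replicate 3 the higher ones numbered 6, and without intramuscular replicate 1, 2 or 3 none of the lower ones was called by edgeR (11, 8 and 9 had an unadjusted p under 0.05); without subcutaneous replicate 3 or 5 it was 1 and 2. Above the relay, 1 of 25 genes of the RAS-RAF module was lower and 0 higher (1 and 1 with the animal as a block). That is 4.0%, against 12.2% of all genes tested. The lower one was LAMTOR1, a lysosomal anchor of the MAP2K1 scaffold (89.05 ± 9.53 against 150.9 ± 44.2 CPM, SD, n = 5). LAMTOR1 lost its call without intramuscular replicate 1, 2 or 3 or subcutaneous replicate 3, with edgeR adjusted p of 0.0579, 0.0632, 0.0614 and 0.0616. The kinase BRAF measured 10.4 ± 1.85 against 6.32 ± 1.72 CPM (edgeR adjusted p = 0.0790). Of 12 inhibitors of RAS or ERK signalling, 1 was higher and 1 lower (16.7%, against 12.2% of all genes tested). Both are GTPase-activating proteins that switch RAS off, while the SPRY and SPRED genes and ERRFI1 of this list were not called. RASAL2 measured 10.1 ± 5.22 against 3.03 ± 0.541 CPM and RASAL1 27.3 ± 9.85 against 52.3 ± 12.2 CPM. For RASAL1 the edgeR adjusted p was 0.0601, 0.0589 and 0.0684 without intramuscular replicate 1, 2 or 3.

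Scaffolds and adaptors had 3 higher and 1 lower of 18 (22.2%, against 12.2% of all genes tested). Lists this short give only coarse shares. SPAG9 (JIP4), a scaffold for JNK and p38 and an adaptor of motor proteins, measured 45.7 ± 6.86 against 24.4 ± 4.12 CPM (SD, n = 5), with a log2 fold change of 0.90 ± 0.17 and an edgeR adjusted p of 0.00597. CNKSR2, a RAS pathway scaffold of neurons, measured 0.881 to 8.42 CPM in intramuscular fat and was counted in 1 subcutaneous library only, replicate 4, at 0.235 CPM. The other 2 called, CNKSR1 (higher) and TAB1 (lower), were named after their values were seen and kept the call in 3 and 1 of the 10 fits with a library left out. Of 11 kinases related to the MAP kinases, MAP3Ks or MAP4Ks 0 were called by edgeR (12.2% of all genes tested), and 3 had an unadjusted edgeR p under 0.05. DESeq2 called 2 of the 11 higher and 1 lower, and limma voom called 1 higher, as did edgeR with the animal as a block (TNIK, adjusted p = 0.0454). TAOK2 and STK3 had the smallest p of the 11 (edgeR adjusted p = 0.0661 and 0.0879). Downstream, 2 of 8 other kinases activated by MAP kinases were higher and 0 lower (3 and 0 with the animal as a block). This is 25.0%, against 12.2% of all genes tested, again a coarse share. The 2 were RPS6KA6 (RSK4, 7.41 ± 2.45 against 1.76 ± 1.07 CPM) and MKNK2 (MNK2, 315 ± 92.3 against 180.3 ± 16.9 CPM), which phosphorylates the translation factor eIF4E. MKNK2 had an edgeR adjusted p of 0.0222, and 0.0728 without intramuscular replicate 3.

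Among 23 transcription factors that MAP kinases act on, 3 were higher and 0 lower (13.0%, against 12.2% of all genes tested). ETS2, an ERK target, measured 169.9, 304, 289, 185 and 203 CPM in intramuscular and 109, 88.8, 46.3, 61.9 and 56.5 CPM in subcutaneous replicates 1 to 5. The depots were well apart (log2 fold change 1.67 ± 0.26, SE, edgeR adjusted p = 0.00159). MEF2A, a p38 and MAPK7 target that is also a muscle regulator, measured 87.6 ± 16.6 against 51.8 ± 7.79 CPM (SD, n = 5; edgeR adjusted p = 0.0144, and 0.0511 without intramuscular replicate 3). EGR3, outside the rule for named genes and added after its values were seen, was the other, with a log2 fold change of 2.74 ± 0.75 (edgeR adjusted p = 0.0321). Its call was lost without intramuscular replicate 2, 3 or 5 or subcutaneous replicate 3 or 4, at adjusted p of 0.0695, 0.0542, 0.0738, 0.0611 and 0.0575. FOS and JUN, chosen here after their values were seen as the best known outputs of the ERK and JNK relays, stood at 1073 ± 717 and 1082 ± 514 CPM in intramuscular and at 725 ± 488 and 804 ± 267 CPM in subcutaneous fat (SD, n = 5; edgeR adjusted p = 0.50 and 0.378). Of 11 other phosphatases that act on MAP kinases 3 were higher and 1 lower (36.4%, again a coarse share of a short list). PTPRR, a tyrosine phosphatase that binds ERK and p38, measured 5.75 ± 1.61 against 1.11 ± 0.487 CPM (SD, n = 5; log2 fold change 2.37 ± 0.41, SE, edgeR adjusted p = 0.00316). PPM1B, a serine-threonine phosphatase that acts on TAK1 and p38, measured 160.04 ± 43.4 against 83.8 ± 18.0 CPM (edgeR adjusted p = 0.0165, and 0.0537 without intramuscular replicate 3). Also called were PPM1A (higher) and PPP2R1A (lower), again named after their values were seen, which kept the call in 4 and 5 of the 10 fits with a library left out. Of the 16 called pathway genes, 6 kept the call with any 1 library left out, namely CNKSR2, ETS2, PTPRR, RASAL2, RPS6KA6 and SPAG9. Without intramuscular replicates 1 and 3, RPS6KA6 had a log2 fold change of 1.95 and an edgeR adjusted p of 0.0883, and MEF2A 0.56 and 0.130.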

How the data were processed

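The authors deposited raw counts per gene and library for 12674 genes, as whole numbers, with a log2 fold change, an adjusted p-value and a gene length. DESeq2 1.42.0, featureCounts 2.0.2, STAR 2.7.11a and Trimmomatic 0.39 are listed, with no roles, per the submitters' processing notes. Neither build, annotation nor counting strand is given in the sources used here, and coordinates are those of the deposited table.

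From the counts, edgeR 4.0.16 in R 4.3.3 (TMM, filterByExpr, quasi-likelihood test, no block) kept and tested 12521 genes and removed 153, at an adjusted p of 0.05, two-sided, after a check on simulated counts. Log2 CPM used a prior count of 2; CPM per kilobase used the deposited gene length. Single differences were tested by exact permutation (SciPy 1.17.1), with the libraries taken as unpaired except where sign flips of pairs are named. The alternatives were DESeq2 1.42.0, limma 3.58.1 voom, DESeq2 size factors, no filter, the animal as a block and left-out libraries.

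Both depots came from the same animals, per the series' design text. Once depot means were removed, libraries sharing a number correlated across genes at 0.102, 0.181, 0.176, 0.161 and 0.237, and 10 of 10 correlated best with their own number, so numbers were taken as pairs.

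The relatives compared with called genes, and genes said to be so, were chosen after values were seen. Otherwise named were all called members, fixed canonical members, the 2 smallest p in each role (43 members in all) and 2 per pathway list. Members and lists were chosen with earlier results of these data known. Of the 65, 1 is withheld and not reported here, although it is in the counts of members.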

Additional observations from a re-analysis of the deposited data

Results flagged for a closer look

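In 86 groups of 5 libraries (43 named genes in 2 depots), 5 single libraries lay far from the other 4, with a gap to the nearest of them above 0.71 of the whole range. For independent, normally distributed values chance gives such a gap in about 1 in 20 groups. CPM need not be normally distributed and the 86 groups share animals, so 5 of 86 cannot be judged against that rate. DUSP16 was at 15.9 CPM in intramuscular replicate 2 (others 4.60 to 7.45) and at 10.6 CPM in subcutaneous replicate 2 (others 0.612 to 3.17), which are the libraries of one animal. DUSP2 was at 35.1 CPM in subcutaneous replicate 5 (others 3.48 to 10.8, mean 7.19). DUSP26 was at 1.68 CPM in subcutaneous replicate 1, against a mean of 0.471 in the other 4. MAP2K3 was at 83.1 CPM in intramuscular replicate 1 (others 50.1 to 56.4).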

How the results depend on the processing

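The higher and lower members numbered 7 and 3. Leaving out 1 library gave 4 to 7 higher and 2 to 5 lower, with 4 higher without intramuscular replicate 3 and 5 lower without subcutaneous replicate 1. Calls over all genes moved as well, from 845 higher and 688 lower to 494 and 263 without intramuscular replicate 3 and to 1008 and 887 without subcutaneous replicate 1. DESeq2 gave 5 lower. Without intramuscular replicates 1 and 3 there were 2 higher and 1 lower. Other pathway genes, 12 higher and 4 lower, ranged from 6 to 14 and from 0 to 4 with 1 library left out, numbered 16 higher with the replicate block and 19 by DESeq2, and 7 and 0 without intramuscular replicates 1 and 3 (5 lower at an unadjusted p under 0.05). Why these counts moved was not tested, beyond the fewer libraries in such fits. MAPK4 differed from 10 of 10 other kinases in each setting except sign flips of the pairs (0 of 10), which cannot pass 0.05. With the replicate block the MAPK4 log2 fold change was 6.36, and beyond the block results in the text no call of a member changed. Of 688 values of the 43 named members under alternatives, 28 lost and 7 gained a call, and 0 of the called values changed sign. Depth limits MAPK4 in subcutaneous fat, which rests on 1 to 10 counts a library, and other genes as low.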
